A study of Mus musculus with 4 samples.

Results

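Potassium channel genes are taken here as the protein-coding mouse genes whose symbol starts with Kcn in the RefSeq annotation of mm10 (assembly GRCm38.p6), which gave 94 of 21887 genes on chromosomes 1 to 19, X and Y. The rule used the symbol alone, so the set holds pore-forming subunits together with auxiliary subunits. The data were peak lists of chromatin immunoprecipitation sequencing (ChIP-seq) of hippocampus from adult C57BL/6N mice. In 3 libraries TIMELESS, which takes part in circadian timekeeping and in DNA replication, had been pulled down with its antibody, and 1 input library had not been immunoprecipitated. All 4 libraries carried the same tissue and strain labels. No library without TIMELESS protein was analysed here, and separate animals are not stated for the 3 TIMELESS libraries, whose spread may thus be technical only. The header of the peak list labelled TIMELESS replicate 3 names its alignment as a second input, so the counts of genes with a shared region are also given without it. After removal of duplicate positions, 8425679, 13572739 and 30454118 tags remained for TIMELESS replicates 1, 2 and 3. The input kept 14669253. Peak lists hold no expression values, so the labelled tissue could not be checked against marker genes.

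Potassium channels let potassium leave the cell, which sets the resting potential, repolarises the action potential and limits repeated firing. Voltage-gated subunits of the Kcna, Kcnb, Kcnc, Kcnd, Kcnh and Kcnq groups open on depolarisation, while the Kcnm and Kcnn channels answer to intracellular calcium. Kcnj genes encode inward rectifiers and Kcnk genes leak channels. In hippocampal pyramidal neurons, A-type current carried by Kcnd subunits, the muscarine-sensitive M current carried by Kcnq subunits and calcium-activated current shape dendritic integration and the afterhyperpolarisation, and several of these currents are known targets of cAMP signalling. The title of the study names synaptic plasticity, memory and cAMP signalling.

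No TIMELESS or input peak overlapped the start of a potassium channel gene as far as these starts are listed. The RefSeq table used here lists windows of 250 bases before to 50 bases after a start for 69 of the 94 genes, with 94 windows in all. None of the 94 windows held a peak of any library, against 0.53% of the 32851 windows of all genes that held a TIMELESS peak. By library this background was 0.0365%, 0.107% and 0.457% in TIMELESS replicates 1, 2 and 3, while 0.0152% of windows held an input peak. At such rates fewer than 1 of 94 windows would be touched, so the count of 0 is no result about these genes. The windows below are shown because their start was the nearest to any TIMELESS peak (Kcne4), to a region with peaks of at least 2 TIMELESS libraries (Kcnk2) and to a region of all 3 (Kcnab1). Each runs 5′ to 3′ on the strand of the gene, from RefSeq GRCm38.p6. The single capital letter marks the listed start, and the run of 6 capitals marks CACGTG, the E-box read by circadian transcription factors.
Kcne4, chr1:78816661-78816960, plus strand: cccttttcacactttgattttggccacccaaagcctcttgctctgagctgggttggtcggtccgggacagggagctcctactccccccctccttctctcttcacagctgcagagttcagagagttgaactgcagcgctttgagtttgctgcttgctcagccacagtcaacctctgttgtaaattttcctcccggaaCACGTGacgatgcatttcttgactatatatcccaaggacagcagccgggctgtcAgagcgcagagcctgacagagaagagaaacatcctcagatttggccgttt
Kcnk2, chr1:189402224-189402523, minus strand: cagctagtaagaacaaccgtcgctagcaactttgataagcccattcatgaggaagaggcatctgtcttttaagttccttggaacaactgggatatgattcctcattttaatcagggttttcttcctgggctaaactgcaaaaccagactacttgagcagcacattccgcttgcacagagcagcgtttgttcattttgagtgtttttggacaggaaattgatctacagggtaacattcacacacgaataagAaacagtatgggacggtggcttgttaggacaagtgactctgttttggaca
Kcnab1, chr3:64948962-64949261, plus strand: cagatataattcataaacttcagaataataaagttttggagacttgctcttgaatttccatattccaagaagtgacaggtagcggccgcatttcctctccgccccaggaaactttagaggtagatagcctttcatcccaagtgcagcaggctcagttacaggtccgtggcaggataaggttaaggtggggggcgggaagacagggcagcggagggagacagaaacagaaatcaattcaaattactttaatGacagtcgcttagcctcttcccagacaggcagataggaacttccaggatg

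Kcne4 encodes a small single-pass subunit that modifies voltage-gated channels. A peak of TIMELESS replicate 3 at 78816122 to 78816474 on chromosome 1, with a fold of 4.59 and a pileup of 23, had its summit 612 bases before the listed start. The other libraries had no peak there, and the nearest peak of another TIMELESS library lay 7489 bases away. The E-box in the Kcne4 window began 54 bases before the start. Among the 94 windows of potassium channel genes, 7 windows of 6 genes held CACGTG, or 7.45%, against 7.15% of all windows. The palindromic cAMP response element, TGACGTCA, was in 0 of the 94 windows, against 1.79% of all windows. The TATA box, TATAAA on either strand, was in 5 of them, or 5.32%, against 13.6%. The median GC content was 58.0% in the windows of potassium channel genes and 52.7% in all windows. A match describes the letters of the window and is no evidence of binding.

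TIMELESS peaks in potassium channel genes were few in the shallowest library and many in the deepest. Counted over the gene body and 3 kb on either side, TIMELESS replicates 1, 2 and 3 had 17, 73 and 290 peaks and the input had 0. No peak fell in the windows of more than 1 of the genes. At least 1 peak was found in 12, 30 and 35 of the 94 genes in TIMELESS replicates 1, 2 and 3. These are 12.8%, 31.9% and 37.2%, against 7.75%, 17.3% and 30.2% of all protein-coding genes. The input had a peak in 0 of the 94 genes, which allows a share of up to 3.19% and covers counting error only, against 0.434% of all genes. Genes of like length carried a sum of only 0.78 input peaks, so the absence of input peaks says little. No test was made between the 3 TIMELESS libraries and the single input, for which the smallest p of an exact permutation would be 0.25.

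Against genes of like length the excess over all genes was not seen. For each potassium channel gene, the 100 other protein-coding genes nearest in length were taken as genes of like length. Among these, 17.1%, 30.9% and 43.9% had a peak of TIMELESS replicates 1, 2 and 3. The share in potassium channel genes was thus 4.35 percentage points lower in replicate 1, 1.04 points higher in replicate 2 and 6.67 points lower in replicate 3. The direction differed between libraries, and an exact two-sided sign-flip permutation test over the 3 libraries gave p = 0.5, where the smallest possible p is 0.25. Genes of like length would hold 25.4, 80.03 and 277.8 peaks in the 3 libraries, where 17, 73 and 290 were found. The differences in number were -8.45, -7.03 and 12.23 peaks (exact two-sided sign-flip permutation p = 1). Only the library labelled TIMELESS replicate 3, whose header names a second input, held more peaks than genes of like length. Per 100 kb, potassium channel genes held 0.151, 0.649 and 2.58 peaks, against 0.201, 0.627 and 2.09 over all protein-coding genes.

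**Figure D1:**
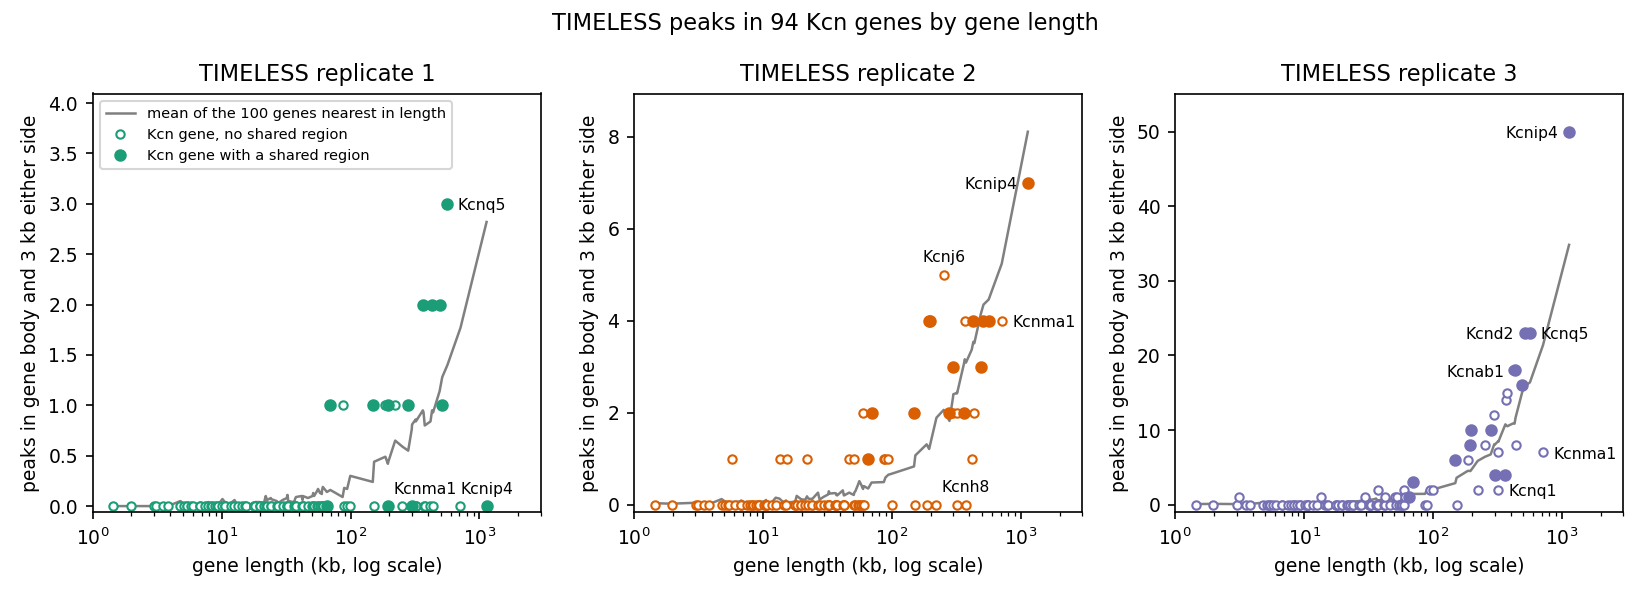
Number of peaks in the gene body and 3 kb either side (vertical axis) against gene length in kb on a log scale (horizontal axis) for the 94 potassium channel genes, in 1 panel per TIMELESS library. Filled points hold a region with peaks of at least 2 libraries, open points do not, and the grey line is the mean of the 100 genes nearest in length. Counts tend to be higher in longer genes, with exceptions. Kcnip4 and Kcnma1, of 1135.6 and 712.8 kb, have 0 peaks in TIMELESS replicate 1 and 50 and 7 in replicate 3.

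Overlapping TIMELESS peaks of the 3 libraries, by at least 1 bp, were merged into regions, and a region with peaks of at least 2 libraries is called shared. Shared regions lay in 13 of the 94 genes, or 13.8%, against 9.92% of all protein-coding genes and 21.3% on average in genes of like length. A region of all 3 libraries lay in 6 of them, or 6.38%, against 4.18% of all genes and 10.1% of genes of like length. Genes of like length would give 19.98 genes with a shared region where 13 were found. A region with peaks of both replicates 1 and 2, which needs no peak of replicate 3, lay in 9 of the 94, against 5.59% of all genes. The 13 genes held 23 shared regions, of which 6 had peaks of all 3 libraries, 12 of replicates 2 and 3, 4 of replicates 1 and 2, and 1 of replicates 1 and 3. Without TIMELESS replicate 3 the count was 9 genes and 10 regions, and without replicate 2 it was 6 genes and 7 regions. The difference from genes of like length stayed negative in each case, at -3.32 and -5.19 percentage points.

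Most of these sites were in long genes. Of the 23 potassium channel genes of 100 kb or more, 11 held a shared region, or 47.8%, against 44.8% of the other 2406 protein-coding genes of that length. A region of all 3 libraries lay in 6 of the 23, or 26.1%, against 21.1%. Their nearest neighbours in length held a shared region in 63.8% of cases. Of the 71 shorter genes 2 did, namely Kcng2 and Kcnip3, or 2.82% against 7.46% of genes of like length. No TIMELESS peak at all was found in 53 genes, or 56.4%, against 65.2% of all genes and 51.6% of genes of like length. Their median length was 15.1 kb. None of the 8 Kcna genes numbered Kcna1 to Kcna7 and Kcna10, the shaker-related channels, held a peak of any library. The longest of them spans 36.2 kb, and 74.1% of genes of like length held no TIMELESS peak either.

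Among the shared regions, the highest mean fold was that of Kcnip1, which encodes a calcium-binding protein that attaches to Kcnd channels and modifies the A-type current. Kcnip1 (gene ID 70357) spans 364.0 kb of chromosome 11 (33629339 to 33993348), and the region at 33727910 to 33728614 lay inside it, 47.6 kb from the nearest listed start. Its folds were 6.84, 7.36 and 6.30 in TIMELESS replicates 1, 2 and 3, a mean of 6.83 ± 0.530 (SD, n = 3). The fold is the authors' value for the peak, the pileup at the summit over the background of the same library. The pileups were 16, 21 and 32 fragments and the −log10 q values 8.18, 11.3 and 14.7. By its smallest fold the region ranked 415 of the 3476 regions of all 3 libraries in the genome. Kcnip1 had 2, 2 and 4 peaks in the 3 libraries, where genes of like length had means of 0.95, 3.08 and 10.8. It was the only 1 of the 94 genes whose region of all 3 libraries remained at a fold of at least 5.

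Kcnip4 and Kcnip3 encode relatives of Kcnip1, and Kcnip3 is also known as a calcium-dependent transcriptional repressor. Kcnip4, at 1135.6 kb the longest potassium channel gene, had 0, 7 and 50 peaks in TIMELESS replicates 1, 2 and 3, where genes of like length had means of 2.82, 8.11 and 34.8. It held 2 shared regions of replicates 2 and 3 on chromosome 5. In the one at 49484781 to 49485320 the folds were 4.10 and 4.97, and that at 48692371 to 48692861 had 4.23 and 3.07. Kcnip4 had no region of all 3 libraries, while 71 of its 100 neighbours in length had one. Those neighbours range from 734.3 to 1527.7 kb, so the match in length is loose. Near Kcnip3, the region at 127454913 to 127455390 on chromosome 2 lay 1.11 kb past the 3′ end of the gene, with folds of 4.10 in replicate 2 and 3.44 in replicate 3. It was the single shared region outside a gene body. Of the 4 Kcnip genes, 3 held a shared region, where 47.5% of genes of like length did. Without the library labelled TIMELESS replicate 3, Kcnip1 alone remained, so 1 of 4 or 25.0% stood against 34.8%.

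Kcnab1 encodes a cytoplasmic beta subunit that speeds inactivation of Kcna channels. Its region of all 3 libraries, at 64959990 to 64960550 on chromosome 3, lay 11.1 kb into the gene from the start shown above. The folds were 3.68, 4.23 and 3.31, a mean of 3.74 ± 0.466 (SD, n = 3), the lowest of the 6 regions of this kind. A further region at 65260806 to 65261165, with folds of 6.40 in replicate 1 and 4.78 in replicate 3, overlapped the noncoding gene A330015K06Rik. Kcnab1 had 2, 4 and 18 peaks in the 3 libraries, above the means of 0.95, 3.54 and 10.8 in genes of like length. Of the other Kcnab genes, Kcnab2 had 1, 1 and 0 peaks and Kcnab3 had none. The 5 Kcne genes, which encode further accessory subunits, held 0 shared regions, where 1.40% of genes of like length held one. Without replicate 3 that share was 0.6%. Peaks of replicate 2 were in the windows of 2 of the 5, or 40.0%, against 5% of genes of like length. Those of replicate 3 were in 2, against 9.80%. All of these peaks lay in the 3 kb flanks rather than the gene bodies, and that of Kcne2 had a −log10 q of 1.95. Kcne1, the longest at 13.5 kb, had 0, 1 and 1 peaks.

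**Figure D2:**
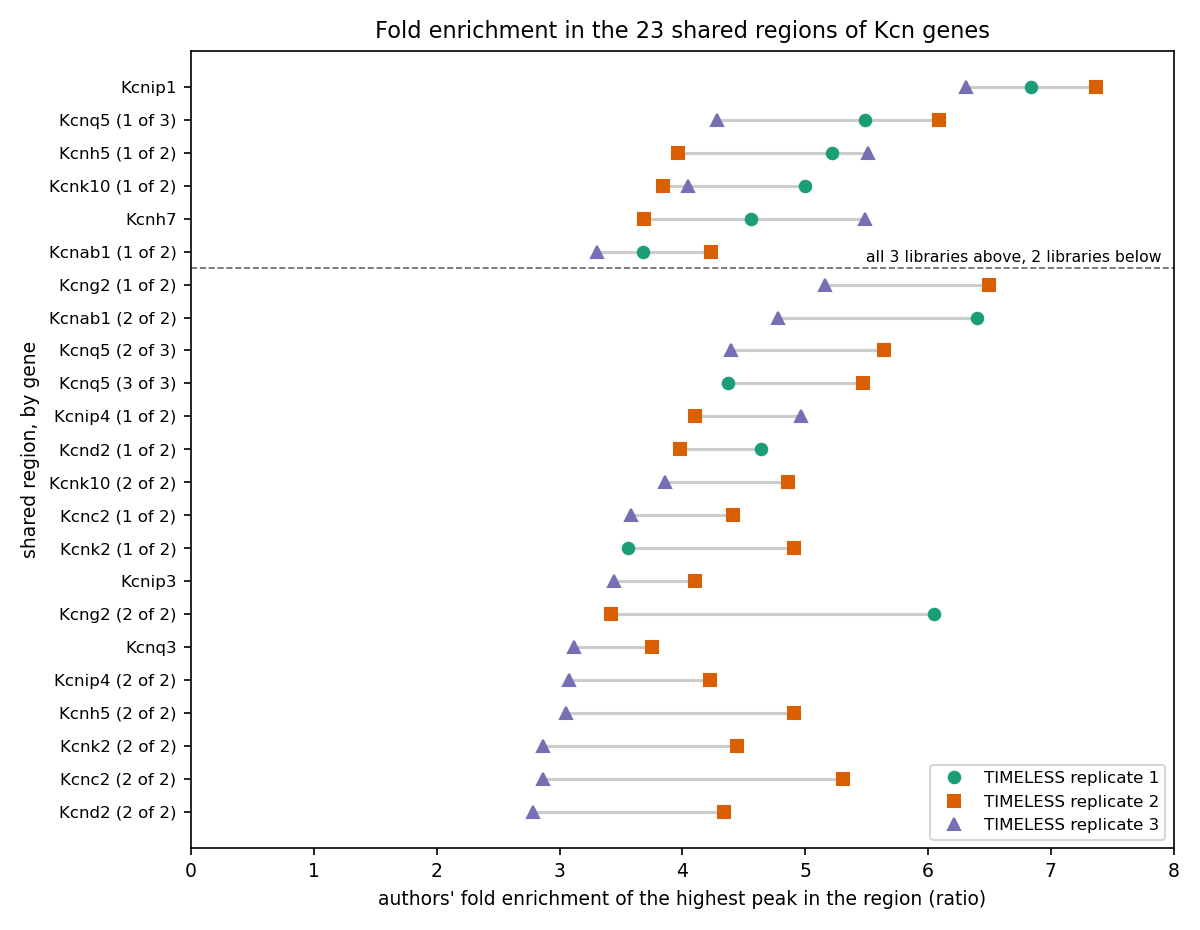
Authors' fold enrichment of the highest peak of each TIMELESS library (horizontal axis, ratio) in the 23 shared regions of potassium channel genes, 1 row per region and ordered by the number of libraries and the smallest fold. Kcnip1 has the highest mean and the highest single fold, with values from 6.30 to 7.36. Kcng2 reaches 6.50 in replicate 2 and Kcnab1 6.40 in replicate 1, and most regions of 2 libraries lie between 2.78 and 5.64.

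Among pore-forming subunits, Kcnq5, which carries part of the M current, held the most shared regions. Kcnq5 (564.3 kb, chromosome 1, 21398399 to 21962650) had 3, 4 and 23 peaks in TIMELESS replicates 1, 2 and 3, against means of 1.40, 4.46 and 16.4 in genes of like length. It held 3 shared regions, and 38 of its 100 neighbours in length held as many or more. A region of all 3 libraries was held by 43 of these neighbours. The region of all 3 libraries, at 21587110 to 21587897, had folds of 5.49, 6.09 and 4.28, a mean of 5.29 ± 0.921 (SD, n = 3). The others had folds of 4.37 and 5.47 in replicates 1 and 2 and of 5.64 and 4.39 in replicates 2 and 3. Kcnq3, the usual partner of Kcnq5 in M channels, had 0, 3 and 4 peaks and 1 shared region on chromosome 15 at 66053839 to 66054520, with folds of 3.75 and 3.11 in replicates 2 and 3. Kcnq1, a cardiac and epithelial channel of 320.2 kb, had 0, 0 and 2 peaks, and 17 of its 100 neighbours in length had as few in replicate 3. In all, 2 of 5 Kcnq genes held a shared region, against 46.4% in genes of like length. Without replicate 3 this was Kcnq5 alone, against 31.8%.

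The Kcnh genes encode channels of the ether-à-go-go family, and 2 of 8, or 25.0%, held a region of all 3 libraries, against 16.2% of genes of like length. In Kcnh5 (280.1 kb, chromosome 12) the peaks met at 74930172 to 74930634, with folds of 5.22, 3.97 and 5.51, a mean of 4.90 ± 0.821 (SD, n = 3). Its summits lay within 26 bp of each other, and replicate 3 had a pileup of 67 there with a −log10 q of 25.6. A second region at 74912613 to 74913062 had a fold of 4.91 in replicate 2 and 3.06 in replicate 3. Both lay toward the 3′ end, at 88.2% and 94.4% of the gene from its start. Kcnh7 (490.9 kb, chromosome 2), which encodes an erg-type channel, had folds of 4.56, 3.69 and 5.49 at 63077971 to 63078856, a mean of 4.58 ± 0.900, 105.9 kb into the gene. Of 100 neighbours in length, 38 held a region of all 3 libraries for Kcnh7 and 18 for Kcnh5. Kcnh8 (376.5 kb) had 0, 0 and 15 peaks, against means of 0.8, 3.09 and 10.5 in genes of like length. Kcnh1 (321.0 kb) had 0, 2 and 7, against 0.84, 2.42 and 8.42, and neither held a shared region. For shared regions Kcnh5 and Kcnh7 stood against 36.3% of genes of like length, and against 21.0% without replicate 3. The direction thus differed with and without that library. With each other library left out, the share in genes of like length was not computed for Kcnh.

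Of the 17 Kcna to Kcnd genes, 2 or 11.8% held a shared region and none a region of all 3 libraries, where 20.4% of genes of like length held a shared one. Without replicate 3, Kcnd2 alone remained, against 11.8%. Kcnd2, the main A-type subunit of pyramidal cell dendrites (514.5 kb, chromosome 6), had 1, 4 and 23 peaks, against means of 1.28, 4.35 and 15.9. One region, 21453007 to 21453418, had a fold of 4.64 in replicate 1 and 3.98 in replicate 2. The other, 21395982 to 21396326, had 4.34 in replicate 2 and 2.78 in replicate 3. Kcnc2, which supports fast firing of interneurons (196.4 kb, chromosome 10), had 0, 4 and 10 peaks, against 0.44, 1.25 and 4.57. One of its regions, 112304615 to 112305109, had a fold of 4.41 in replicate 2 and 3.58 in replicate 3. In the other, 112428285 to 112428911, these were 5.31 and 2.86. Of 100 neighbours in length, 55 for Kcnd2 and 17 for Kcnc2 held as many shared regions or more. Kcnb2, a delayed rectifier of 436.8 kb, had 0, 2 and 8 peaks and no shared region. Kcnd3, an A-type relative of Kcnd2 named here after its values were seen, had 1, 0 and 2 peaks over 222.1 kb, yet held the highest fold of any replicate 3 peak in the set, 8.09 at 105586871 to 105587889 on chromosome 3. No other library had a peak within 111673 bp of it.

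Kcng2 encodes a silent subunit that changes Kcnb channels rather than forming its own. It was the only one of 10 silent Kcnf, Kcng, Kcns and Kcnv genes with a shared region, against 7.70% in genes of like length and 4% without replicate 3. It held 2 shared regions in 69.7 kb, and 3 of its 100 neighbours in length held as many. One had folds of 6.50 and 5.16 in TIMELESS replicates 2 and 3, and the other had 6.05 and 3.42 in replicates 1 and 2. The first kept both peaks at a fold of at least 5.

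Leak channels of the Kcnk group held a shared region in 2 of 14 genes, or 14.3%, against 12.4% in genes of like length, and both remained without replicate 3, against 6%. They belong to the TREK group, which opens with stretch and is closed by cAMP-dependent phosphorylation. Kcnk10 (148.8 kb, chromosome 12) had folds of 4.997, 3.84 and 4.04 at 98485135 to 98485664, a mean of 4.29 ± 0.616 (SD, n = 3). A second region at 98512843 to 98513767 had 4.86 and 3.86 in replicates 2 and 3. Among its 100 neighbours in length, 9 held a region of all 3 libraries. Kcnk2 (194.9 kb, chromosome 1) had 1, 4 and 8 peaks, and 16 of its 100 neighbours in length held as many shared regions. Its region at 189391880 to 189392496, with a fold of 3.56 in replicate 1, 4.91 in replicate 2 and summits 2 bp apart, lay 10.1 kb from the start shown above. The other, at 189280452 to 189280894, had 4.45 and 2.87 in replicates 2 and 3.

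Inward rectifiers and calcium-activated channels held no shared region. Of the 15 Kcnj genes 0 held one, against 11.9% in genes of like length, and against 6.87% without TIMELESS replicate 3. A peak of that replicate lay in 6 of the 15, or 40.0%, against 35% of genes of like length. Kcnj6, a subunit of G protein-gated channels (252.7 kb), had 0, 5 and 8 peaks, where genes of like length had means of 0.59, 2.06 and 6.41. Peaks of different libraries came within 0.725 kb in Kcnj6 and within 0.556 kb in Kcnj3, its partner subunit. When peaks up to 1 kb apart were joined, a setting chosen after seeing the data, both genes gained a shared region. Of the 9 Kcnm and Kcnn genes 0 held one, against 32.9% in genes of like length, and against 21.9% without replicate 3. Kcnma1, the pore of the large-conductance calcium-activated channel, spans 712.8 kb and had 0, 4 and 7 peaks, where genes of like length had means of 1.77, 5.24 and 21.4. A shared region was held by 85 of its 100 neighbours in length, which range from 557.1 to 868.1 kb, and 18 had as few peaks in replicate 3. The nearest peaks of different libraries in Kcnma1 were 10.3 kb apart.

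Kcnn2, a small-conductance channel of the afterhyperpolarisation (417.1 kb), had 0, 1 and 18 peaks, so that nearly all were of the library labelled TIMELESS replicate 3. Genes of like length had means of 0.84, 3.37 and 10.9, and 15 of the 100 had as many or more in replicate 3. Kcnmb2, a beta subunit of Kcnma1 (298.3 kb), had 0, 2 and 12, against means of 0.76, 2.33 and 8.08. Kcnn3, a relative of Kcnn2 named after its values were seen, had no peak of any library in 152.3 kb, as did 13 of its 100 neighbours in length. Replicate 1 had 0 peaks in the 9 genes, where genes of like length would hold 4.19. Of the 3 Kcnt and Kcnu genes 0 held a shared region, where the share in genes of like length was 37.3%, or 1.12 genes. Without replicate 3 that share was 21%. Kcnt2, a sodium-activated channel of 368.4 kb, had 0, 4 and 14 peaks, against means of 0.93, 3.16 and 10.65 in genes of like length. The nearest peaks of different libraries in Kcnt2 were 1.80 kb apart. These are counts in small groups of genes, and differences between subfamilies were not tested.

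**Figure D3:**
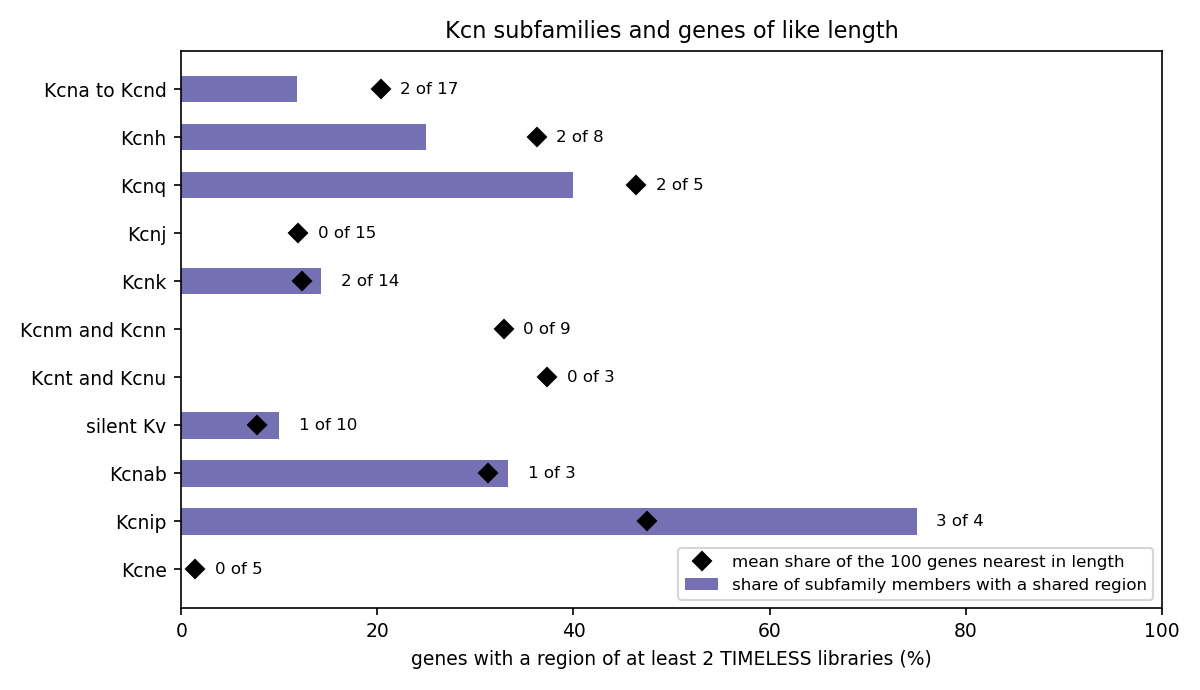
Share of genes with a region of at least 2 TIMELESS libraries (horizontal axis, %) for 11 groups of potassium channel genes (bars, with the count of genes at the right) and the mean share of the 100 genes nearest in length to each member (diamonds). Kcnj, Kcnm with Kcnn, Kcnt with Kcnu and Kcne genes have 0, and Kcnip genes have 3 of 4.

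**Figure D4:**
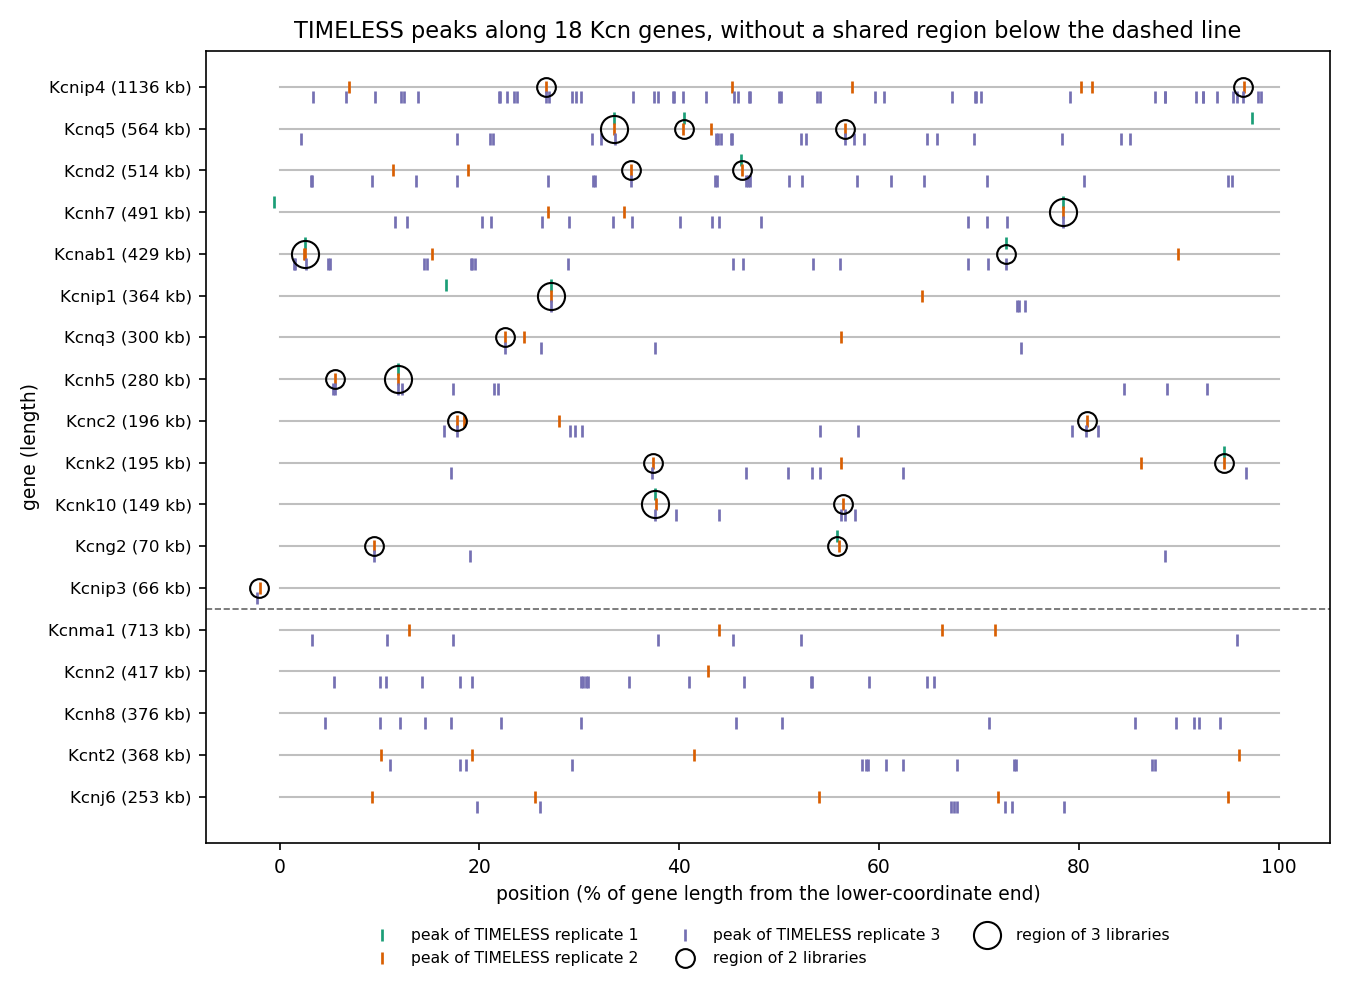
Positions of TIMELESS peaks along the 13 potassium channel genes with a shared region and 5 long genes without one, in % of gene length from the lower-coordinate end (horizontal axis). Coloured ticks are peaks of each library, small circles regions of 2 libraries and large circles regions of all 3. The map shows peaks of replicates 2 and 3 in Kcnma1, Kcnt2 and Kcnj6 that do not meet.

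Regions were taken from gene bodies and 3 kb flanks, so their place inside genes follows from the choice, and 22 of 23 lay in the body. In the 20 regions of genes with a listed start the distance to the nearest one ranged from 10.1 to 374.4 kb with a median of 99.4 kb. Of the 19 regions inside a gene of known strand, 9 were in the first 50% of the gene. Exons and introns are not given in the gene table used here. Summits of the libraries in a shared region spanned a median of 102 bp, close to 100 bp over all 11957 shared regions. The median smallest fold was 3.69, against 3.68 over all shared regions. In 11 of the 12 regions of replicates 2 and 3 alone the fold was higher in replicate 2, which holds fewer tags, and the same held in 77.4% of such regions genome-wide. The part of depth in these folds was not tested.

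Most peaks in potassium channel genes were not shared. In replicate 1, 64.7% of the 17 peaks met one of another TIMELESS library, against 76.4% of all peaks of that library. The share was 30.1% of the 73 peaks of replicate 2, against 46.6% of all its peaks, and 6.90% of the 290 of replicate 3, against 12.4%. These differences were not tested. The median fold was 4.997, 4.45 and 3.82 in replicates 1, 2 and 3, against 4.91, 4.41 and 3.63 over all peaks of these libraries. The highest fold of a peak was 6.84, 7.36 and 8.09.

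Proteins that work with potassium channels but carry other names were taken from a list of 25 genes. Of these, 8 held a shared region, or 32.0%, against 31.7% in genes of like length, and 6, or 24.0%, held a region of all 3 libraries, against 18.4%. Without replicate 3, 6 held a shared region, against 22.4%. Abcc8, the sulfonylurea receptor that joins Kcnj11 in ATP-sensitive channels, spans 75.5 kb and held 1 peak of each library, with folds of 8.55, 9.58 and 7.83 at 46141816 to 46142258 on chromosome 7. Its mean of 8.65 ± 0.877 (SD, n = 3) was above that of any Kcn gene, and 9 of the 100 genes nearest to it in length held a region of all 3 libraries. Dpp10, an auxiliary subunit of Kcnd channels, had a mean fold of 7.42 ± 1.70, and its relative Dpp6 had 4.06 ± 1.38. They span 1513.7 and 910.1 kb, and 71% and 66% of genes of like length held a region of all 3 libraries. The scaffold gene Dlg2 had 4.14 ± 0.205 and Adam22, a receptor for Lgi1 at axonal channel complexes, had 4.32 ± 1.90. For Dlg2 (1973.1 kb) the share in genes of like length was 71%, and for Adam22 (296.0 kb) it was 26%. Cntnap2, which clusters Kcna channels along axons, held 13 shared regions in 2241.3 kb. Of the 100 genes nearest to it in length, 95% held a shared region and 71% a region of all 3 libraries. No count of shared regions in those genes is set beside the 13.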

How the data were processed

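The 3 TIMELESS libraries and 1 input library each have a deposited peak list. Per the file headers, MACS 2.1.2 was run on 1 library at a time without a control, at a q value cutoff of 0.05, with 101 bp tags and at most 1 tag per position. Bowtie2 2.4, SAMtools 1.14, MACS2 2.1.1, deepTools 2.0 and the build mm10 are named in the submitters' processing notes, with no settings. The deposited pileup is a signal, the raw fragment coverage at the summit, not scaled for depth. The deposited fold is a ratio to the local background estimated in that library. The deposited p and q values are −log10 values. Fixation was in 1% formaldehyde for 10 minutes before sonication, per the labels' protocols.

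The analysis took the 7454, 24659 and 89043 TIMELESS peaks and 306 input peaks on the autosomes, X and Y, and merged overlapping TIMELESS peaks. A region that met an input peak was dropped, but no potassium channel gene held an input peak. A region's fold in a library was that of its highest peak. Gene positions came from RefSeq GRCm38.p6, and strand came from its promoter windows for 69 of 94 genes. Intervals and gene windows were computed with Python 3.11.15 and pandas 2.3.3 and checked on simulated peaks, and the permutation test used SciPy 1.17.1. Deeper libraries let weaker sites pass the same q value.

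The genes and lists were chosen with earlier results of these data known. Genes are named where they held a region of all 3 libraries, then of 2, up to 30 in all, where they were the longest of a subfamily, and for up to 6 partners with a region of all 3 libraries. Others are examples within their subfamily chosen after their values were seen. Results for some single genes are not reported here. Alternatives were other thresholds on q and fold, equal numbers of peaks, 50% overlap, windows without flanks or with 10 kb, regions over input kept, each TIMELESS library left out, and length classes.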

Additional observations from a re-analysis of the deposited data

How the results depend on the processing

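The share of potassium channel genes with a shared region minus that of genes of like length was negative under each setting tried, all of which reuse the same peaks, and this difference was not itself tested. It moved from -7.43 percentage points to -3.04 with genes of the same length class, of 10 classes, and to -16.0 over genes of 100 kb or more, the latter chosen after seeing the data. Leaving out each TIMELESS replicate gave between -5.19 and -3.32 points, 6 to 13 genes with a shared region, 7 to 18 shared regions, 0 to 2 Kcna to Kcnd genes, 1 to 2 Kcnk genes and 1 to 2 Kcnq genes. At −log10 q of at least 5 there were 7 genes with a shared region, 2 with a region of all 3 libraries and 8 shared regions, with 1 gene each among Kcna to Kcnd, Kcnh, Kcnk and Kcnq. At fold of at least 5 these were 4 genes, 1 gene and 4 regions, with 0 Kcna to Kcnd, 1 Kcnh, 0 Kcnk and 1 Kcnq gene. With equal numbers of peaks per library (7454) they were 5 genes, 1 gene and 6 regions, with 0 Kcna to Kcnd, 1 Kcnk and 1 Kcnq gene. With 10 kb flanks 1 Kcnm or Kcnn gene held a shared region, and with peaks up to 1 kb apart joined 2 Kcnj genes did. Fewer peaks enter the stricter settings by construction. The other 76 alternative values stayed within 1.5 times the main count or, for the difference from genes of like length, within 3.96 percentage points. That limit is the SD between libraries of the difference in the share of genes with a peak, not with a shared region. Of 41 alternative values for the mean folds of single regions, 38 stayed within 1 SD. No paired analysis was possible because the input library carries no replicate number in the labels and no test between groups was made. The library labelled TIMELESS replicate 3 holds 290 of the 380 peaks in these genes, and replicate 1 holds the fewest tags and peaks.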

Other observations

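Shared regions also lay just outside the windows counted above. Within 10 kb of a potassium channel gene, but more than 3 kb from it, there were 5 further shared regions near 4 genes, and none of them lay in a protein-coding gene. Kcnd2 had one 6.08 kb before its start, at 21208863 to 21209261 on chromosome 6, with folds of 6.99 and 5.82 in TIMELESS replicates 1 and 2 and no peak of replicate 3. These are higher than the folds of its regions inside the gene. Kcne1, an accessory subunit of Kcnq1, had a region of all 3 libraries 7.26 kb away, at 92338295 to 92338738 on chromosome 16, with a mean fold of 4.75 ± 1.03 (SD, n = 3). Kcnk16, a leak channel best known from pancreatic islets, had 2 neighbouring regions of all 3 libraries on chromosome 14, with mean folds of 4.08 ± 0.598 and 3.77 ± 0.521 and 4.97 and 6.53 kb from the gene. Kcnmb2 had one with folds of 4.18 and 3.97 in replicates 2 and 3. With this wider window 16 of the 94 genes, or 17.0%, held a shared region, against 13.8% of all protein-coding genes and 24.6% of genes of like length.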
